A study of Mus musculus with 15 samples.

Results

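Hepatic stellate cells were examined here through 9 of their marker genes, Des, Lrat, Reln, Pdgfrb, Acta2, Hgf, Ngfr, Hand2 and Cygb, of 21755 protein-coding genes annotated on chromosomes 1 to 19 and X. These genes were listed as known markers of the cell type, and the rule that lists them uses no measured value. The list was nevertheless chosen with earlier results of these data known. H3K4me3, trimethylation of lysine 4 of histone H3, had been profiled by PAT-ChIP-seq, which is chromatin immunoprecipitation and sequencing from formalin-fixed, paraffin-embedded tissue, in the whole liver of 15 female C57BL/6 mice (C57BL/6J in the study's methods) from 6 litters, with 1 library per mouse and 3 mice per diet. The mice received a standard diet ad libitum (SD), caloric restriction with a reduced daily amount of the standard formula (CR), a high-fat diet ad libitum (HF), a diet based on yellow corn ad libitum (YD), or a diet based on purple corn ad libitum (RD). The 2 corns are near-isogenic, and the purple corn contains anthocyanins, mainly cyanidin 3-O-glucoside, which the yellow corn lacks. In YD and RD the powder of these corns took the place of the maize in the standard formula, at equal energy content. SD and CR therefore also contained maize, and the name corn diets is used here for YD and RD only. Diets began at 3 months of age and lasted 10 months, although each sample is labelled as 12 months old. The data of each mouse are a list of enriched regions, called islands, with a position on mm10 and a score, and a gene was counted as marked where an island lay within 1 kb of any of its transcription start sites (TSSs).

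Stellate cells lie between hepatocytes and the sinusoidal endothelium, store vitamin A as retinyl esters, and are the main source of collagen-producing myofibroblasts when the liver is injured. H3K4me3 collects at the TSSs of genes that are active or poised, and in most mammalian cells it is found at CpG-rich promoters. In whole liver most chromatin comes from hepatocytes, so a marker of a less abundant cell type is read against a large background of cells that do not use it. Fewer stellate cells and less of the mark per stellate cell cannot be told apart in such samples.

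The promoters of the members differed in CpG content, a property that played no part in choosing them. RefSeq promoters on GRCm38.p6, from 250 bases before to 50 after a start, were matched for 7 of the 9 members, all but Pdgfrb and Cygb. The ratio of observed to expected CpG was 1.01 for Reln, 0.897 for Hand2, 0.777 for Lrat and 0.607 for Ngfr, and 92.0%, 81.9%, 68.2% and 51.3% of 20061 promoters of protein-coding genes had a lower ratio. It was 0.344 for Des, 0.270 for Acta2, and 0.368 and 0.328 for the 2 listed promoters of Hgf. The 250 bases before the start are shown for 4 members, 5′ to 3′ on the strand of the gene, with every CG in capitals, because they span the range from the densest to the sparsest promoter and include the 2 members with the most islands. Hgf lies at chr5:16553245-16553494 on the plus strand and holds 4 CG, Hand2 at chr8:57320733-57320982 on the plus strand and holds 15, Reln at chr5:22344706-22344955 on the minus strand and holds 37, and Acta2 at chr19:34255374-34255623 on the minus strand and holds 4.
Hgf: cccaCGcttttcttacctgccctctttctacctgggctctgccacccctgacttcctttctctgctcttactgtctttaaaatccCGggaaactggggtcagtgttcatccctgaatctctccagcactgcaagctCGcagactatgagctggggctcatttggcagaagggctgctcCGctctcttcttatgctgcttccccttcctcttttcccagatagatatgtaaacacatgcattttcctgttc
Hand2: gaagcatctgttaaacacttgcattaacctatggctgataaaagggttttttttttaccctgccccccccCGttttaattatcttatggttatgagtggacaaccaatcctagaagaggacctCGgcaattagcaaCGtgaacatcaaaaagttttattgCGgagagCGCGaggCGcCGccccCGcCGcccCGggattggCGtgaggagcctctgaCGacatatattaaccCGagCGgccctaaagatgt
Reln: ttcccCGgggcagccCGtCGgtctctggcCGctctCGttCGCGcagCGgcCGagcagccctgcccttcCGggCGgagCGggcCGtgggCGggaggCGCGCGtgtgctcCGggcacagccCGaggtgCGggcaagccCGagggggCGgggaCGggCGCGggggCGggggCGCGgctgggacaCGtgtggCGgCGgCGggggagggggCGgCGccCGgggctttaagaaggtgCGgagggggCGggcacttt
Acta2: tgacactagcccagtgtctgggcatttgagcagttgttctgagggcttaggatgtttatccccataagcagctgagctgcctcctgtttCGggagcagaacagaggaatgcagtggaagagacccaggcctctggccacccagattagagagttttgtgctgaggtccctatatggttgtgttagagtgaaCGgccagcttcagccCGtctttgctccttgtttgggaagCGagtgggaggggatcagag

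Letter strings were searched for on both strands of the 300-base promoters. TATAAA was found in no member promoter and in 12.1% of all promoters. The CArG box is the element bound by serum response factor in smooth muscle genes. It was searched for only as CCWWWWWWGG, with W for A or T, and was found in no member promoter and in 1.52% of all. Elements with a mismatch were not counted, so the search does not show that a member such as Acta2 lacks one. GGGCGG, the core of the Sp1 site, was found in the promoters of Des, Lrat, Reln, Ngfr and Hand2, not in those of Acta2 or Hgf, and in 48.0% of all promoters. Among the 8672 genes with a CpG ratio of at least 0.6, 14.2% had no island in any library and 65.7% had one in at least 8 libraries, against 64.9% and 15.5% of genes under 0.6. Among the members with a ratio of at least 0.6, Reln, Hand2, Lrat and Ngfr were marked in 1, 5, 2 and 0 libraries. Of those under 0.6, Hgf was marked in 8, Des in 1 and Acta2 in 0.

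The lists held 7825 islands in YD_1 to 33752 in CR_3. The reads recovered from the score steps ranged from 5589269 in CR_1 to 15449854 in YD_1, so the library with the most reads had the shortest list. RD_2, with 13978169 reads and 32131 islands, had no marked member. The share of protein-coding genes with an island ranged from 17.5% in YD_3 to 54.6% in HF_1, with means of 22.8% ± 4.69 for YD, 31.2% ± 3.46 for RD, 39.6% ± 5.98 for SD, 43.4% ± 6.92 for CR and 51.2% ± 3.53 for HF (SD between mice, n = 3 each). Markers of hepatocytes, the labelled tissue's main cells, were marked in 157 of 180 gene and library combinations (87.2%). Library names came in 2 forms, PATChIP for CR_1, CR_2, HF_2, HF_3, RD_1 and ChIP for the remaining 10.

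An H3K4me3 island at a TSS was found for the stellate markers in 18 of 135 gene and library combinations (13.3%), against 37.6% of the combinations over all protein-coding genes. Of the 9 members, 6 were marked at least once, as were 60.0% of protein-coding genes (13044 of 21755), and 3 (Acta2, Ngfr and Cygb) in no library. Hgf was marked in 8 libraries, Hand2 in 5, Lrat in 2, and Des, Reln and Pdgfrb in 1 each. An island in at least 8 libraries was found for 40.1% of protein-coding genes and for Hgf alone among the members.

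**Figure D1:**
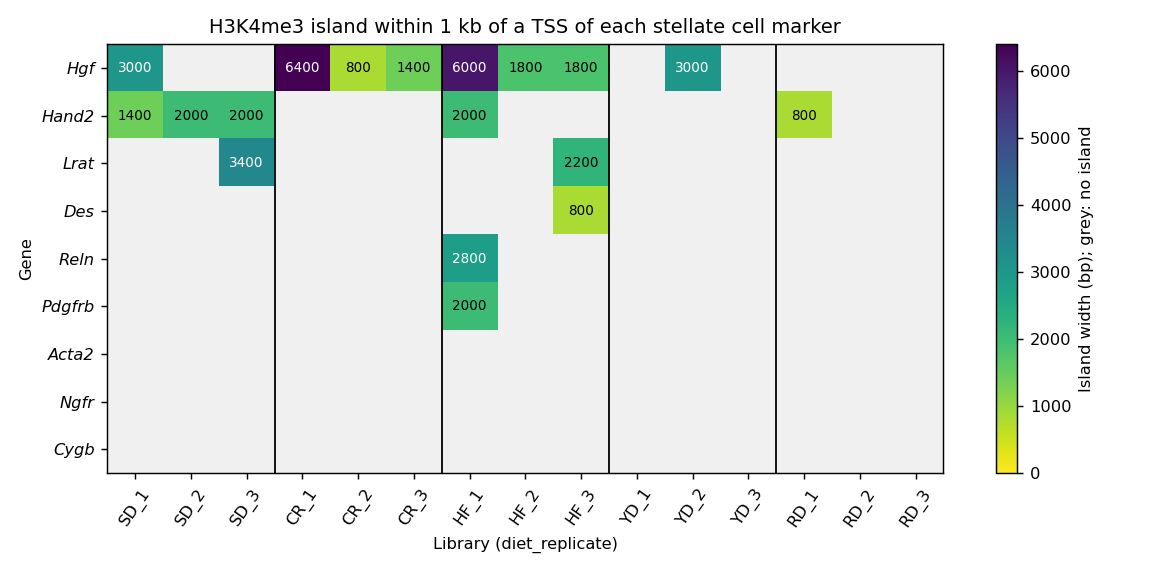
Width in bp of the H3K4me3 island within 1 kb of a TSS for each of the 9 stellate cell markers (rows) in each of the 15 libraries (columns, grouped by diet); grey cells have no island. Hgf is marked in all 3 CR and all 3 HF mice, Hand2 in all 3 SD mice, and Acta2, Ngfr and Cygb in none.

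By diet, 1 or 2 members were marked in each SD mouse, 1 in each CR mouse, 1 to 4 in the HF mice, and 0 or 1 in the YD and RD mice. The mean was 1.67 ± 0.577 members in the SD mice, 1 ± 0 in CR, 2.67 ± 1.53 in HF, and 0.333 ± 0.577 in both YD and RD (SD, n = 3 mice each). The corn diets together held 2 of the 18 islands, in YD_2 (Hgf) and RD_1 (Hand2), which is 2 of 54 combinations (3.70%) against 16 of 81 (19.8%) for SD, CR and HF. The share of marked protein-coding genes was also lower, 27.0% ± 5.92 in the 6 YD and RD mice and 44.7% ± 7.09 in the other 9 (SD). HF_1, the library with the largest share of marked genes, held 4 of the 8 HF islands, and without it the HF mean was 2 members. The order of the diets turned when every list was held to its 7825 highest-scoring islands, with means of 1 in SD, 0 in RD and 0.333 in each of CR, HF and YD. With only the islands that reached the median score the means were 0.667 in both SD and CR, 0.333 in both HF and YD, and 0 in RD. Among the libraries with ChIP names the means were 0.333 in the YD mice, 0 in RD and 1.67 in SD, with 1 member in the single CR mouse and 4 in the single HF mouse.

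**Figure D2:**
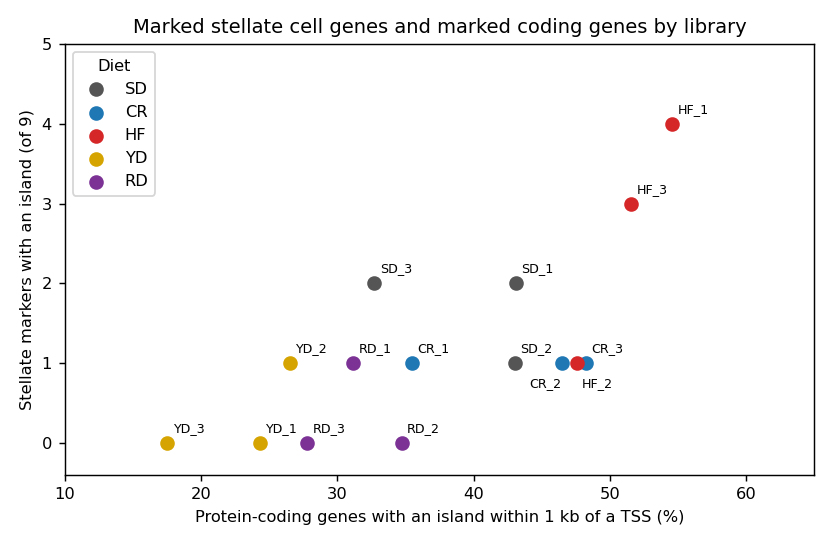
Number of the 9 stellate markers with an island (vertical axis) against the share of protein-coding genes with an island in % (horizontal axis), 1 point per library, coloured by diet. The highest counts, 4 and 3, are in HF_1 and HF_3, the libraries with the largest shares of marked genes, and the 4 libraries with no marked member are of YD and RD.

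Hgf encodes hepatocyte growth factor, the ligand that stellate cells supply to the Met receptor of hepatocytes. The gene (ENSMUSG00000028864.7, chr5:16553495-16620152, plus strand) has 6 TSSs within 433 bp. The island at Hgf was 3000 bp wide in SD_1 and absent in SD_2 and SD_3, 6400, 800 and 1400 bp in CR_1, CR_2 and CR_3, 6000, 1800 and 1800 bp in HF_1, HF_2 and HF_3, 3000 bp in YD_2, and absent in YD_1, YD_3 and the 3 RD mice. CR and HF were thus marked in every mouse, SD and YD in 1 mouse each, and RD in none. The rank of the island by score also varied within a diet. In CR it stood at 5.49% from the top of the list in CR_1, at 42.6% in CR_3 and at 97.3% in CR_2, and in HF at 14.5%, 70.8% and 82.1%. In SD_1 and YD_2 it stood at 23.8% and 35.0%.

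The islands did not cover the same bases. A TSS of Hgf lay inside the island in 6 libraries, SD_1, CR_1, CR_3 and the 3 HF mice. In CR_1 the island ran from 1694 bp before the first TSS to 4705 bp after it, and in HF_1 from 1494 bp before to 4505 bp after. The islands of CR_2 (706 to 1505 bp after the first TSS) and YD_2 (906 to 3905 bp) lay wholly within the transcribed region, and that of YD_2 is the only island at Hgf in the corn diets. In SD_3 an island of 2600 bp began 1473 bp after the nearest TSS, outside the 1 kb limit. RD_1, RD_2 and SD_1, of which only SD_1 was marked at the TSSs, also had intronic islands of 1400, 5400 and 2400 bp between 32106 and 37905 bp after the first TSS, where no TSS was annotated within 1 kb. That of RD_2 ranked at 26.0% from the top.

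**Figure D3:**
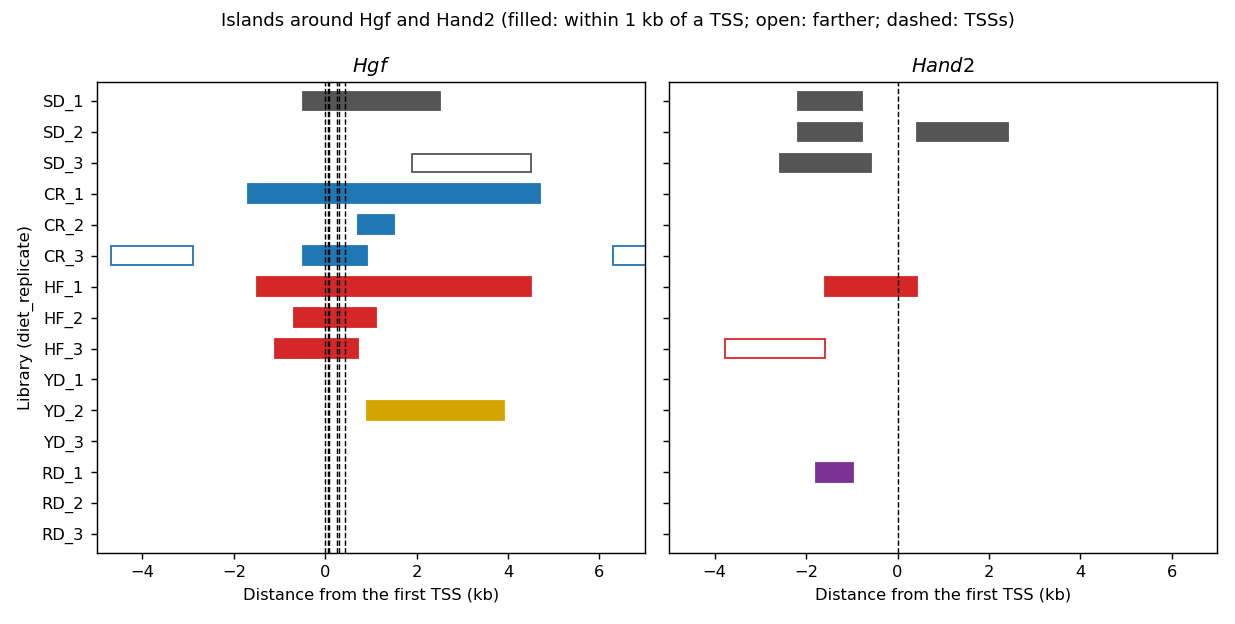
Position of the islands at Hgf (left) and Hand2 (right) in each library, in kb from the first TSS along the gene; filled bars lie within 1 kb of a TSS, open bars farther away, and dashed lines mark the TSSs. The bars at Hgf cross a TSS in 6 of 8 libraries, while those at Hand2 lie beside the TSS in all but HF_1.

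Hand2 encodes a basic helix-loop-helix transcription factor that marks the mesenchymal lineage of stellate cells. Its gene (ENSMUSG00000038193.4, chr8:57320983-57324633, plus strand) has 1 TSS, and all its islands also lay within 1 kb of a TSS of Hand2os1, a transcript on the opposite strand, so that the 2 genes cannot be separated. The island was 1400, 2000 and 2000 bp wide in SD_1, SD_2 and SD_3, 2000 bp in HF_1 and 800 bp in RD_1, and it was absent in the 3 CR mice, HF_2, HF_3, the 3 YD mice, RD_2 and RD_3. SD was the only diet with an island in all 3 mice. The islands ranked below the middle of their lists, at 52.4%, 76.1%, 69.6%, 51.2% and 59.1% from the top in SD_1, SD_2, SD_3, HF_1 and RD_1.

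The TSS of Hand2 was inside the island in HF_1 alone. In SD_1 and SD_3 the island ended 783 and 583 bp before the TSS, in SD_2 the higher-scoring of 2 islands began 418 bp after it and the other ended 783 bp before it, and in RD_1 the island ended 983 bp before it, just inside the 1 kb limit. An island of 2200 bp in HF_3 ended 1583 bp before the TSS, just outside it.

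Lrat encodes lecithin retinol acyltransferase, the enzyme that esterifies retinol for storage. The gene (ENSMUSG00000028003.6, chr3:82892579-82903973, minus strand) was marked in SD_3 with 3400 bp, at 34.9% from the top, and in HF_3 with 2200 bp, at 83.4%. Only the island of SD_3 contained the TSS, and both lay within 1 kb of a TSS of Rbm46os. Further into the gene, islands of 1800 bp in HF_2 and 2600 bp in SD_3 began 2773 and 3773 bp from the TSS.

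The 2 receptors of the group were rarely marked. Pdgfrb, the receptor for platelet-derived growth factor B (ENSMUSG00000024620.11, chr18:61045150-61085061, plus strand), had an island of 2000 bp in HF_1 alone, at 51.5% from the top and 401 bp from the nearest TSS. Ngfr, the low-affinity neurotrophin receptor p75 (ENSMUSG00000000120.6, chr11:95568818-95587735, minus strand), had none. Reln encodes the secreted glycoprotein reelin. Its gene (ENSMUSG00000042453.14, chr5:21884454-22344702, minus strand) had an island of 2800 bp near a TSS in HF_1, at 58.8% from the top, but 14 further islands of 800 to 2800 bp lay elsewhere in its 460249 bp, in 9 libraries. Of these, 1 island each of SD_2, SD_3, CR_3 and RD_2 fell between 193902 and 197701 bp after the first TSS and contained no exonic base.

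The cytoskeletal markers and the globin were marked in a single combination. Des, which encodes the intermediate filament protein desmin (ENSMUSG00000026208.9, chr1:75360329-75368579, plus strand), had an island of 800 bp in HF_3, at 90.2% from the top, with a TSS inside it. Acta2, the smooth muscle actin of activated stellate cells (ENSMUSG00000035783.9, chr19:34241090-34255590, minus strand), had no island at its TSSs or elsewhere in the gene. Cygb, which encodes cytoglobin (ENSMUSG00000020810.5, chr11:116645595-116654313, minus strand), had none near its TSS, and the nearest was an island of 1800 bp in HF_1 that began 2113 bp after it, at 68.8% from the top.

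Where they were present, the islands of the members were modest in rank. Their widths ran from 800 to 6400 bp with a median of 2000 bp, while the median width of promoter islands in a library ran from 1200 bp in YD_3 to 2600 bp in HF_1. Of the 18 islands, 6 stood above the middle of their list and 12 below it, with a range of 5.49% to 97.3% from the top and a median of 55.6%. The median for all marked protein-coding promoters was between 15.5% in CR_3 and 39.3% in YD_1. A TSS lay inside the island in 9 of the 18.

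**Figure D4:**
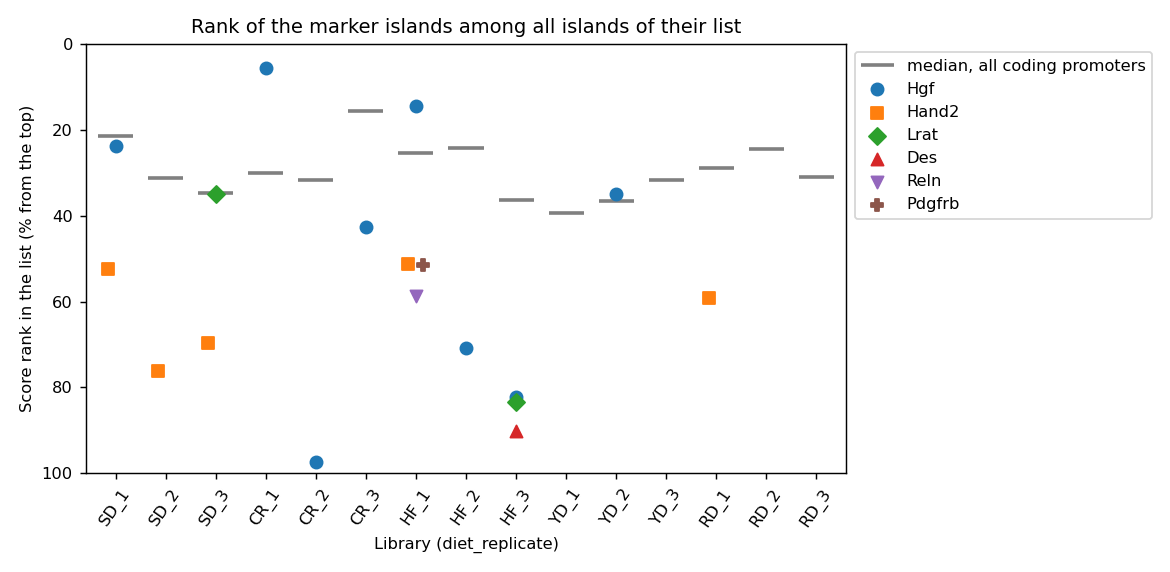
Rank by score of each stellate marker island within its own list, in % from the top (0 is the highest score, at the top of the axis), by library; grey bars give the median rank of all marked protein-coding promoters of that library. Of the 18 islands 12 stand below 50%, and Hgf in CR_1 and HF_1 stands at 5.49% and 14.5%.

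The corn diets were compared with SD, CR and HF by the width of the island, taken as 0 bp where none was called, with a two-sided exact permutation test for each of 13044 genes over the 5005 arrangements of 6 and 9 mice, and p-values adjusted by the Benjamini-Hochberg method. None of the 6 members tested passed an adjusted p of 0.05, and 10% of all genes tested were called lower in the corn diets and 0% higher. At an unadjusted p under 0.05 no member passed either, against 39% of all genes lower and 0.023% higher. Des, Reln and Pdgfrb with 1 island and Lrat with 2 could not reach that p, so the comparison bears on Hgf and Hand2. Hgf was 0 bp in 5 of the 6 corn mice and 3000 bp in YD_2, against a lowest value of 0, a median of 1800 and a highest value of 6400 bp in the other 9. The groups overlapped. The means were 500 ± 1225 and 2356 ± 2374 bp (SD, n = 6 and 9), a difference of -1856 bp (exact permutation p = 0.109, adjusted p = 0.202), with an island in 1 of 6 and 7 of 9 mice. With limma on log2(width + 200 bp) the same comparison gave a log2 difference of -2.22 for Hgf (adjusted p = 0.0429, range over all settings 0.0429 to 0.607), and 31.6% of genes were called lower and 0.00767% higher. Hand2 differed by -689 bp (133 ± 327 and 822 ± 992 bp, exact permutation p = 0.163, adjusted p = 0.263), with an island in 1 of 6 and 4 of 9 mice. Lrat, Des, Reln and Pdgfrb had no island in the corn mice and 1 or 2 in the others. Among the 10 libraries with ChIP names, which hold 5 corn mice and 5 others, Hgf had an adjusted p of 0.607 by exact permutation, and the PATChIP names hold 1 corn mouse. The median difference over all genes tested was -833 bp, and 95.3% of them were lower.

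The HF mice were set against the 12 mice of the other diets in the same way, over 455 arrangements. No member was called, and of all genes tested 0% were called higher and 0% lower by the exact test. The smallest possible p of this exact test is 0.0022, so a call needs many genes at that limit. The lowest adjusted p it gave to any gene was 0.0706. At an unadjusted p under 0.05 no member passed, against 32.6% of genes higher and 0.023% lower, and limma called 14.3% higher and 0.00767% lower, with no member among them. The width at Hgf was 6000, 1800 and 1800 bp in HF, and in the other mice it ran from 0 to 6400 bp. The difference was 1983 bp (3200 ± 2425 and 1217 ± 1995 bp, SD, n = 3 and 12, exact permutation p = 0.154, adjusted p = 0.283), with an island in 3 of 3 and 5 of 12 mice. The limma test gave a log2 difference of 2.34 for Hgf (adjusted p = 0.107, range over all settings 0.107 to 0.899). Des, Reln and Pdgfrb were marked in 1 HF mouse each and in none of the 12 others, and a single island among 15 mice cannot give a p under 0.05 here. Hand2 differed by 150 bp (exact permutation p = 0.901, adjusted p = 0.969). Without HF_1 the sign turned, with 0 bp in the HF mice and 517 bp in the others, a difference of -517 bp. The median difference over all genes tested was 917 bp.

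Over all 5 diets together, an exact permutation test of the between-diet sum of squares, over 1401400 partitions of the mice, called 4 of 13044 genes (0.0307%) and no member, while 27.9% of genes had an unadjusted p under 0.05. Hand2 had an unadjusted p of 0.04995 in this exact permutation test and an adjusted p of 0.179, and limma gave it an adjusted p of 0.0534 (range over all settings 0.0534 to 1), where 14.7% of genes were called. For Hgf the exact permutation p was 0.308 and the adjusted p 0.455.

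Pairs of diets were compared by whether the 3 widths of one diet lay above or below all 3 of the other, since the smallest two-sided exact p for 3 mice against 3 is 0.1. The 3 SD mice enter 4 of these comparisons. Hand2 was the only member whose groups did not overlap. Its mean width was 1800 ± 346 bp in SD (1400, 2000 and 2000 bp), 0 bp in every CR and YD mouse, and 267 ± 462 bp in RD (800, 0 and 0 bp), so that it was lower in CR, YD and RD, where 1.17%, 16.9% and 8.88% of the genes tested were lower than SD without overlap and 5.17%, 0.0651% and 0.379% higher. With the TSS required inside the island Hand2 was marked in 1 library (HF_1), with 7825 islands per list also in 1, and at or above the median score in 0, so that SD no longer stood apart. In HF it was 667 ± 1155 bp (2000, 0 and 0 bp), which overlapped SD, and no member separated HF from SD, where 16.2% of genes were higher and 0.152% lower. None separated RD from YD, where 5.53% were higher in RD and 0.271% lower.

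The score was also compared, as the percentile of a gene among the protein-coding genes of its own library, with unmarked genes tied at the bottom, so that a library that marks more genes gives its unmarked genes a lower percentile. No member was called in the corn diets, with 1.42% of all genes lower and 1.81% higher, or in HF, where 0% were called in either direction. The limit on the smallest p in HF holds here too, and the lowest adjusted p of the exact test there was 0.231. At an unadjusted p under 0.05 no member passed, against 15.9% of genes lower and 3.82% higher in the corn diets and 2.15% lower and 7.25% higher in HF. The percentile of Hgf was 44.9 ± 20.9 in the corn mice and 59.8 ± 22.5 in the others, a difference of -14.9 points (exact permutation test, n = 6 and 9, p = 0.214, adjusted p = 0.465). Hand2 differed by 0.489 points (adjusted p = 0.978), and by -5.77 points without RD_1. In HF the percentile of Hgf was 63.6 ± 17.4, against 51.4 ± 23.5 in the other mice (adjusted p = 0.862).

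The genes whose score percentiles followed that of Hgf most closely over the 15 libraries, among genes marked in at least 8, were Rdm1 (Spearman rho = 0.957) and Zmiz2 (rho = 0.900). Both had an island in 1 SD, 3 CR, 3 HF, 1 YD and no RD mouse, the same numbers as Hgf. For Hand2 they were Rab5b (rho = 0.821, marked in 14 libraries) and Wsb1 (rho = 0.779, marked in 15). These values are descriptive, and the genes of a library share its depth and its number of islands. Unmarked genes of a library also tie at 1 percentile, set by the share of genes that the library marks. The libraries without an island at Hgf or Hand2 therefore shape each rho through that share.

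The partners of the member ligands and receptors were listed as 23 genes of the Pdgf, Hgf, neurotrophin and reelin pathways, and an island was found in 136 of 345 combinations (39.4%). The adaptors Gab1 and Shc1 were marked in all 15 libraries, and Dab1, Ntrk3, Spint1 and St14 were among those marked in none. In the corn comparison 2 of the 18 partners tested were called lower and none higher, beside 10% and 0% of all genes. They are Met and Grb2, named here after their values were seen. Met, the receptor of hepatocyte growth factor, had an island of 800 to 3600 bp in each of the 9 SD, CR and HF mice, and among the corn mice only in RD_2, with 1600 bp. Its means were 267 ± 653 and 2111 ± 996 bp (SD, n = 6 and 9, exact permutation p = 0.00280, adjusted p = 0.0423), and its score percentile differed by -30.9 points (exact permutation test, adjusted p = 0.0327). No gene was called by width when mice were exchanged only within replicate numbers, without YD_3, or among the libraries with ChIP names alone. Both calls by width were lost in each of these settings. Each setting allows fewer arrangements of the mice than the main test, so its smallest possible p is larger. Whether the calls were lost for that reason was not tested.

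Genes that handle retinoids, the cargo of stellate cells, were marked in 108 of 210 combinations (51.4%) over 14 genes. Rara, Rbp4, Rdh10 and Rxra had an island in all 15 libraries and Aldh1a2, Crabp1, Crabp2 and Stra6 were among those with none. Of the 9 tested, 3 (Dgat1, Rarb and Rxra, also named after their values were seen) were called lower in the corn diets and none higher, beside the same 10% and 0% of all genes. Rarb, a retinoic acid receptor, was marked in 8 of the 9 SD, CR and HF mice, with a mean of 2978 ± 1675 bp, and in 0 of the 6 corn mice (exact permutation p = 0.00240, adjusted p = 0.0421). The 3 calls were lost in the same settings as those of Met and Grb2.

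A further 27 genes known from stellate cells, among them collagens and signalling receptors, were marked in 92 of 405 combinations (22.7%), and 8 were marked in no library, including Col1a1, Ecm1 and Gfap. Gata4 and Plin2 were marked in all 15 and Vim in 12, and these 3 are also used by other liver cells. None of the 19 tested was called in the corn comparison. The number marked was 7 in each SD mouse, 4 to 8 across the CR mice, 9 to 15 across the HF mice, and 2 to 4 for both corn diets. HF_1 again had the most, with 15.

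Markers of other liver cells also varied between libraries. Kupffer cell markers were marked in 12 of 165 combinations (7.27%), with 7 of 11 genes in HF_1, 0 and 2 in HF_2 and HF_3, and 0 or 1 in every other library, and Csf1r, Marco, Timd4 and Vsig4 in no library. Sinusoidal endothelial markers were marked in 69 of 165 (41.8%), with 3 to 8 of 11 genes in the SD mice, 4 to 7 in CR, 7 to 11 in HF, 1 or 2 in the YD mice and 2 or 3 in RD. These counts include Gata4, which was marked in all 15 libraries and is also counted among the further stellate genes. Hepatocyte markers numbered 10 to 12 of 12 in the SD mice, 8 to 11 in CR, 12 in each HF mouse, 7 to 12 in YD and 8 to 11 in RD. Cholangiocyte markers were marked in 24 of 120 (20%), with Cftr, Epcam, Krt19 and Spp1 in no library. Smooth muscle markers were marked in 6 of 120 (5.00%), all of them Smtn, and mesothelial markers in 11 of 75 (14.7%), all of them Krt8. Hgf, Hand2, Reln and Pdgfrb had islands in HF_1, where endothelial and Kupffer markers were at their highest counts, and the part of those cells in the result was not tested.

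**Figure D5:**
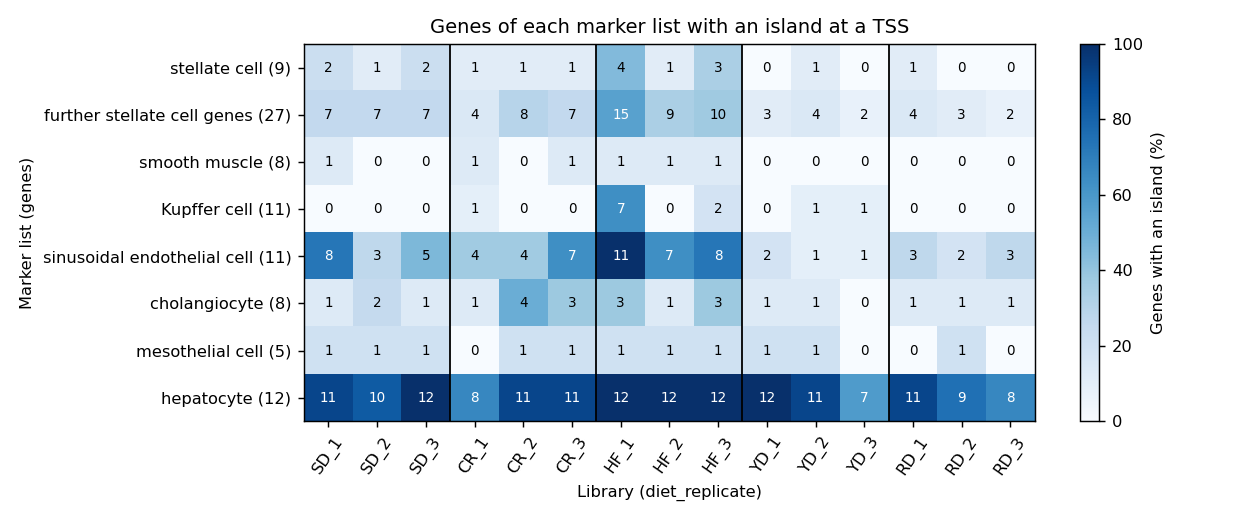
Number of genes of each marker list (rows, list size in brackets) with an island within 1 kb of a TSS in each library (columns, grouped by diet), shaded by the share of the list in %. HF_1 holds the highest count of stellate (4), further stellate (15), Kupffer (7) and endothelial (11) genes, and hepatocyte genes number 7 to 12 in every library.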

How the data were processed

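H3K4me3 islands of 15 liver libraries, 1 per mouse and 3 mice per diet, were used, with the diet and replicate number taken from the sample labels. The authors aligned reads to mm10 with bwa, removed unmapped, duplicate and low-quality reads, and called islands in each library separately with SICER2, which joins enriched windows of 200 bp across gaps of up to 400 bp. Each island's score, as the authors deposited it, adds up the negative natural log of a Poisson probability across its enriched windows. It is not scaled between libraries and was used only as a rank within a list. The lists differ in length and depth, and reads per island were not used here, so no counting interval is given.

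TSSs came from GENCODE M21. For each gene the highest-scoring island within 1 kb of any TSS was taken. Its width was tested by exact permutation over all arrangements of the mice (Python 3.11.15, numpy 2.4.6, scipy 1.17.1, numba 0.67.0), with Benjamini-Hochberg adjustment over 13044 protein-coding genes with an island in at least 1 library, and a threshold of 0.05. limma 3.58.1 in R 4.3.3 on log2(width + 200 bp) was an alternative, as were the distance to the TSS, island width and score minimums, principal TSSs, summed or relative width, the same number of islands per list, libraries with the ChIP form of name, the replicate block and leaving out each mouse. The depth of each list was worked out from the steps of the score, with an effective genome fraction of 0.74, within 0.000704 of a whole number. Tests were checked on simulated data.

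The 9 members and all gene lists were chosen with earlier results of these data known. Named were the members, genes whose TSS shares a member's island, for members marked in at least 3 libraries the 2 genes with the most similar percentiles, and in other lists those marked in the most and the fewest libraries, with the exceptions stated. Each mouse is a separate animal, and errors after ± are standard deviations between mice.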

Additional observations from a re-analysis of the deposited data

Results flagged for a closer look

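In 5 cases a single mouse stood apart from its group, with an island where the other mice had none. The ratio of its gap to the range of the group was above Dixon's 95% critical value in these cases. Among the 6 YD and RD mice these were Hgf in YD_2, with 3000 bp, and Hand2 in RD_1, with 800 bp. Among the 9 SD, CR and HF mice they were Des in HF_3, with 800 bp, and Reln and Pdgfrb in HF_1, with 2800 and 2000 bp. Chance flags about 1 in 20 groups of normally distributed values, and widths with many zeros are not of that kind. Where all other mice have 0 bp the ratio is 1 whatever the width, so these flags only restate that 1 mouse had an island. The Hgf island of YD_2 lay 906 to 3905 bp after the first TSS and the Hand2 island of RD_1 ended 983 bp before the TSS, so that neither contained a TSS of the gene.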

How the results depend on the processing

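No member was called in any comparison with any mouse left out, and limma was the only setting with a member called, 1 (Hgf, lower in the corn diets). The difference of Hand2, called in none of the comparisons, turned its sign for width in HF without HF_1, and for percentile in the corn diets without RD_1 (-5.77) and without CR_1, CR_2, CR_3, HF_2 or HF_3 (-0.812 to -1.82). That of Hgf kept its sign without any 1 mouse. With a TSS required inside the island, 9 member islands remained of 18. The mean number of members fell to 0.667 in both SD and CR, 1.67 in HF and 0 in both YD and RD. With TSSs within 3 kb the means were 2 in SD, 1.33 in CR, 3.67 in HF and 0.333 in both YD and RD. With the 7825 highest-scoring islands of every list 6 member islands were left, with means of 1 in SD, 0 in RD and 0.333 in CR, HF and YD. With islands at or above the median score 6 were left, with means of 0.667 in SD and CR, 0.333 in HF and YD, and 0 in RD. Leaving out 1 mouse gave means of 1.5 to 2 in SD, 1 in CR, 2 to 3.5 in HF, and 0 to 0.5 in both YD and RD.

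The number of protein-coding genes called set the background. For width in the corn diets it was 1309, and became 551 with a TSS inside the island, 506 with 7825 islands per list, 158 with width relative to the library median, 0 when the PATChIP names were left out (where Hgf had an adjusted p of 0.607 by exact permutation) and 4122 with limma. Leaving out the PATChIP names also left fewer arrangements of the mice, with a larger smallest possible p. Leaving out 1 mouse gave a number of 0 to 2360. It was 0 without YD_3, 137 without YD_2, 181 to 278 without HF_1, HF_3, CR_2, RD_3, CR_3, HF_2 or RD_1, 447 without SD_1, 534 without YD_1, 2105 without CR_1 and 2360 without SD_3. Over the 5 diets it was 4, and 0 with a TSS inside the island, 9 within 3 kb, 0 with 7825 islands per list, 19 with summed widths, 2 with relative widths, 1915 with limma, and 0 to 144 without 1 mouse, 144 without HF_2. For width in HF it was 0 and became 1866 with limma. For the percentile in the corn diets it was 421, 57 with unmarked genes set to a percentile of 0 (chosen after seeing the data), and 211 to 490 without 1 mouse, 211 without RD_2.

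Mice with the same replicate number are separate animals. Departures from the diet mean correlated by 0.0056 on average between mice of the same number (-0.0845 to 0.116 over 30 pairs). Between mice of different numbers the average was -0.00286 (-0.114 to 0.101 over 60 pairs). However, 9 of 15 libraries were closest to one of their own number, although pairs of different numbers were more numerous. With the replicate block, 0 genes were called for width in the corn diets and 0 over the 5 diets. The block allows fewer arrangements of the mice, so the smallest possible p is larger there. The depth behind single islands was not used here, so a missing island says that none was called at that depth.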
